A study of Arabidopsis thaliana with 4 samples.

Results

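The response to Al of the AvSAMS1 transformant (TF) of Arabidopsis thaliana was read from the 2 Agilent 2-colour arrays labelled as this line, replicates 1 and 2, of the 4 arrays in the series. On each array the Al-treated plants (Cy5) were hybridised together with untreated plants of the same line (Cy3), so that each probe gives 1 relative fold (+Al/−Al), used here as its log2 (the log2 ratio). Probes were kept where both channels were well above background on both AvSAMS1 TF arrays, which held for 26573 of the 43603 probes and for 17027 of 25383 loci with a paired probe (1 probe per locus, the brightest). The same condition on the 2 arrays of Col-0, the parental laboratory ecotype, held for 18198 loci.

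AvSAMS1 is the S-adenosylmethionine (SAM) synthetase cDNA of Andropogon virginicus, a wild grass of acid soils, and the transgene was driven by the CaMV 35S promoter, which is active in most tissues. The methods name 1 homozygous single-insert line, TF6, for the arrays, whereas the series design speaks of 2 transgenic lines. Plants of both lines were 3 weeks old and received Al at pH 4.2 for 2 days, at 300 mM by the labels and at the same figure in μM by the methods. By the labels the untreated plants of replicate 1 were collected at day 0 but the untreated plants of replicate 2 at day 2, in the AvSAMS1 TF as in Col-0. The Col-0 plants carried no transgene, and each sample was a pool of plants. The labels name whole plants and the labelling step names shoots. No array had the dyes the other way round, so a dye effect of a single probe remains in every ratio of the line. No probe is annotated as AvSAMS1 in the files, and the transgene itself was therefore not checked on the arrays.

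Al ions released in acid soil damage roots and disturb membranes, cell walls and ion uptake. Plants under such stress are known for several programmes that can be read from RNA. These are the chaperones of the heat shock response, which hold denatured proteins in solution; the unfolded protein response, in which chaperones of the endoplasmic reticulum (ER) are made when folding there fails; the salicylic acid (SA) branch of immunity; glutathione transferases (GST), which detoxify; and the loss of photosynthetic transcripts. SAM synthetase makes the methyl donor of nucleic acids, proteins and small molecules, and also the precursor of ethylene, nicotianamine and polyamines.

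The arrays of the 2 replicates differed in depth of signal. Median processed signals of the AvSAMS1 TF were 152 (untreated) and 163 (Al-treated) on replicate 1 against 512 in both channels of replicate 2. Probes well above background made up 62.1% of untreated and 69.7% of Al-treated spots on replicate 1 and 77.9% and 78.3% on replicate 2. Of 3923 probes that failed the condition in 1 channel only, 3614 failed in untreated replicate 1. Replicate 2 of both lines shared 1 slide, whereas each replicate 1 had its own, so that within the line replicate, slide, scan and day of untreated sampling cannot be told apart. Leaf transcripts were present in every channel, with 20 of 20 antenna protein and 16 of 16 carbon fixation loci well above background. Of 25 root markers, 12 (untreated) and 10 (Al-treated) were well above background on replicate 1 and 23 and 17 on replicate 2. In bulk RNA, fewer cells of a type and less RNA per cell cannot be told apart.

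The 2 arrays of the AvSAMS1 TF went against each other for most of the genome. The log2 ratios had a Pearson correlation of -0.27 and a Spearman correlation of -0.29 across the 26573 probes, as a description, since probes share arrays and are not independent. In 4 bins of equal size from dim to bright probes the Pearson correlation was -0.20, -0.28, -0.32 and -0.32. The sign was the same on both arrays for 10337 probes (38.9%) and for 6329 of 17027 loci (37.2%), of which 3135 (18.4%) were above 0 and 3194 (18.8%) below. The reverse signs were split into 5278 loci (31%) above 0 on replicate 1 only and 5420 (31.8%) above 0 on replicate 2 only. The SD of the log2 ratio over probes was 0.99 on replicate 1 and 0.69 on replicate 2, and 5707 probes (21.5%) were past 2-fold on replicate 1 against 2449 (9.22%) on replicate 2. Over loci, 1943 (11.4%) were past 2-fold up and 1860 (10.9%) down on replicate 1, and 1019 (5.98%) and 666 (3.91%) on replicate 2. Between the Col-0 arrays the Pearson correlation was 0.46. Replicate 2 of the AvSAMS1 TF correlated with replicate 2 of Col-0 at 0.82, on the same slide, and replicate 1 with replicate 1 at 0.08, on separate slides. Replicate 1 of the AvSAMS1 TF correlated with replicate 2 of Col-0 at -0.32. The direction of each ratio was kept as the methods give the dyes, but whether the channels of AvSAMS1 TF replicate 1 had been exchanged was not tested. Every agreement, opposition and comparison with Col-0 below rests on that direction. With the sign of replicate 1 turned, its correlation was 0.27 with replicate 2 of the line, 0.32 with replicate 2 of Col-0 and -0.08 with replicate 1 of Col-0.

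The loci past 2-fold on both arrays, 932 in all (5.47%), formed 4 classes. There were 64 alike up (0.376% of loci), 184 alike down (1.08%), 202 up on replicate 1 and down on replicate 2 (1.19%) and 482 down on replicate 1 and up on replicate 2 (2.83%). Counted over probes these were 87 (0.327%), 251 (0.945%), 272 (1.02%) and 679 (2.56%), so that 338 of 1289 probes past 2-fold on both arrays (26.2%) had the same sign. With the sign of replicate 1 turned, the agreeing and opposed classes change places, with 482 loci alike up, 202 alike down, 184 up on replicate 1 only and 64 up on replicate 2 only. In limma, 0 of 26569 probes passed an adjusted p of 0.05 for the Al response of the line (smallest adjusted p 0.999), and 963 (3.62%) had an unadjusted p under 0.05, 287 up and 676 down. A t-test of the 2 ratios of the line against 0, with 1 degree of freedom, gave 0 after adjustment and 866 without it. With 2 arrays per line the limma fit has 2 residual degrees of freedom, and the classes below describe the agreement of 2 arrays without being a call of change. Where several probes of a locus were measured, 117 of 180 loci in a class had every probe in the same class.

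**Figure D1:**
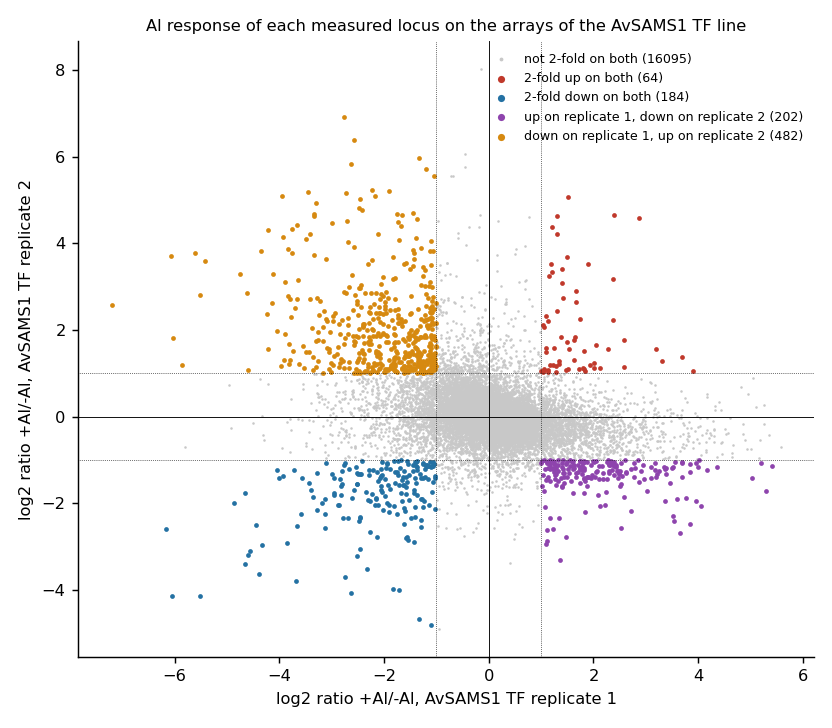
Log2 ratio (+Al/−Al) of 17027 loci on AvSAMS1 TF replicate 1 (x axis) and replicate 2 (y axis), with the 4 classes past 2-fold on both arrays in colour and the other loci in grey. The cloud slopes downward (Pearson -0.27), and the class down on replicate 1 and up on replicate 2 holds the most coloured points, 482 against 64 in the class alike up.

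The loci alike up held small heat shock proteins, a cytosolic chaperone, a GST and phosphate and auxin response genes. Hsp70b, a cytosolic chaperone of the HSP70 family, was at a log2 ratio of 2.37 on replicate 1 and 3.18 on replicate 2, and at 1.18 and 2.16 in Col-0. PEPC1, a phosphoethanolamine/phosphocholine phosphatase of phosphate starvation, was at 2.38 and 2.24 in the AvSAMS1 TF and at 1.13 and 1.69 in Col-0. The SE from limma was 0.26 for PEPC1, and the unadjusted p-values were 0.000663 (PEPC1) and 0.00138 (Hsp70b). Here and below, loci were named by the same ratios that give these p-values, so a low unadjusted p is no separate support. IAA1, an auxin-induced repressor of auxin signalling, was at 1.74 and 2.24 against 0.20 and 0.85 in Col-0 (unadjusted p 0.00197 for the response and 0.0224 for the difference). AT4G12000 was at 2.59 and 1.77 against 0.67 and 0.65 in Col-0 (unadjusted p of the difference 0.0197), and 2 of its 3 probes were in the class. Both genes were above both Col-0 arrays without overlap, which held for 16.5% of all loci.

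The rest of the 8 named loci of this class had a wider spread between the arrays. DGR1, a cell wall protein of the DUF642 family, was at 2.87 and 4.59, and at 6.75 and 2.26 in Col-0. GSTU25, a tau class GST, was at 2.40 and 4.66, and the small heat shock protein AT1G53540 at 1.90 and 3.53. AT4G04460, a saposin-like aspartyl protease, was at 1.67 and 2.89 and lay below both Col-0 arrays (3.17 and 3.49). Over the whole class the median log2 ratio was 1.5 and 1.57 in the AvSAMS1 TF and 1.29 and 1.56 in Col-0, and 30 of the 64 loci were past 2-fold up on both Col-0 arrays, beside 2.98% of all loci.

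The loci alike down with the largest ratios included peroxidases, a wall protein and a receptor kinase. AT5G64100, a class III peroxidase of the cell wall, was at a log2 ratio of -4.39 on replicate 1 and -3.62 on replicate 2, near its Col-0 values of -3.66 and -3.91 (unadjusted p 0.000109 for the response of the AvSAMS1 TF). AT5G40590 was at -4.56 and -3.10 beside -5.32 and -2.93 in Col-0. Both were low on all 4 arrays.

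Other loci of the class were low in the AvSAMS1 TF and of opposite sign on the 2 Col-0 arrays. AT1G26250, of the proline-rich extensin-like family, was at -5.53 and -4.15 against 2.17 and -4.07 in Col-0. AT4G33720, of the CAP family that holds PR1, was at -6.06 and -4.13 against 1.17 and -4.44, and the peroxidase AT3G03670 at -4.67 and -3.40 against 1.38 and -3.05. In each of them Col-0 replicate 1 stands apart and the other 3 arrays are low. EXO70H1, an exocyst subunit, was at -4.33 and -2.96, and AT1G05700, a leucine-rich repeat receptor kinase, at -3.68 and -3.78, and both were below background in a channel of Col-0 replicate 1. With normexp the mean over the 2 AvSAMS1 TF arrays was less low, at -2.50 (loess) and -2.31 (median centring) for AT1G05700, -2.67 and -2.48 for EXO70H1 and -2.77 and -2.59 for AT3G03670. AT4G18940 was at -4.59 and -3.20 and was not well above background in any channel of Col-0. Of the 184 loci, 56 were past 2-fold down on both Col-0 arrays (beside 2.12% of all loci) and 2 past 2-fold up on both (beside 2.98%). The class medians were -1.94 and -1.59 in the AvSAMS1 TF and -1.04 and -1.40 in Col-0.

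The functions of the AvSAMS1 TF response were described with 38 lists that cover 847 loci, by the number of loci in each class and by the median log2 ratio on each array. The heat shock list held the largest share of loci alike up. The class down on replicate 1 and up on replicate 2 held loci of the unfolded protein response and SA immunity lists. It also held loci of the WRKY, wall loosening, GST and Al tolerance lists, among others. The reverse class held loci of the cell cycle and antenna protein lists. Of 20 antenna loci, however, 10 were above 0 on both arrays (beside 18.4% of all loci). The lists were composed with earlier results of these data known, and no test over a list was made.

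**Figure D2:**
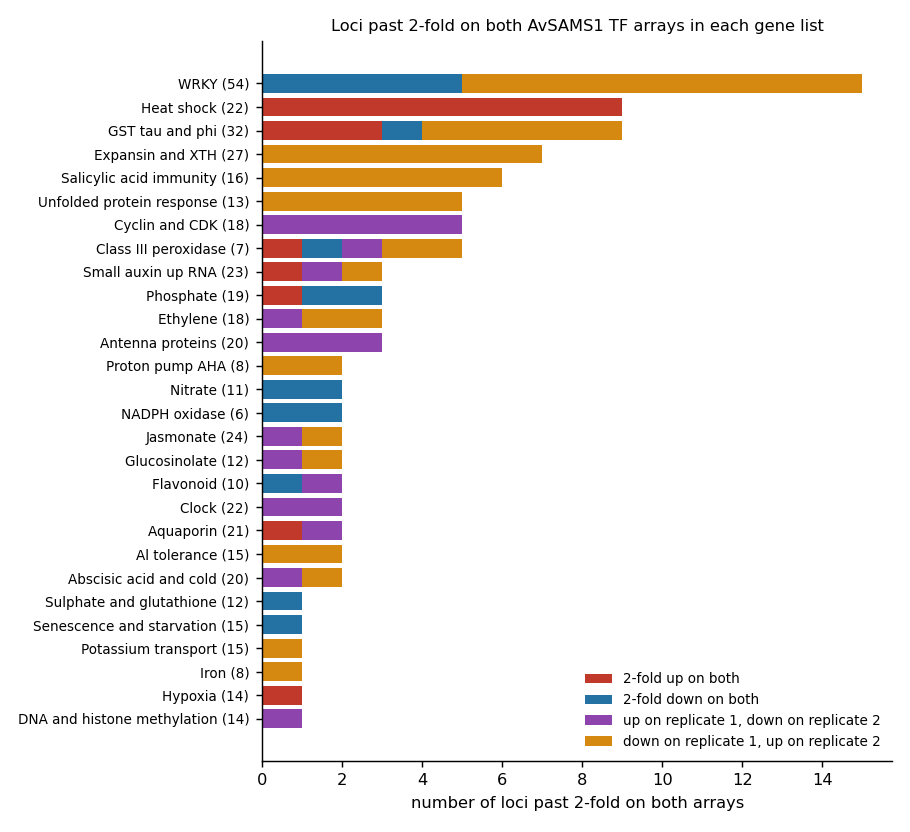
Number of loci past 2-fold on both AvSAMS1 TF arrays (x axis) in each gene list with at least 6 measured loci (y axis), coloured by class. Heat shock is the list with 9 loci alike up and none in the other classes, whereas WRKY holds 5 alike down and 10 down on replicate 1 and up on replicate 2.

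Heat shock genes were up on both arrays. Of 24 listed loci 22 were measured, and 9 of them (40.9%) were alike up, beside 0.376% of all loci, with 0 in each of the other 3 classes. With the sign of replicate 1 turned, the 9 would be opposed. The median log2 ratio was 1.23 on replicate 1 and 1.26 on replicate 2, beside -0.01 and 0.00 over all loci, and 0.81 and 1.21 in Col-0. In limma 8 of the 22 (36.4%) had an unadjusted p under 0.05, beside 3.51% of loci, and 0 an adjusted one. The medians kept their sign with normexp and loess (1.18 and 1.23) and with median centring (1.56 and 1.55).

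Cytosolic small heat shock proteins, which bind unfolding proteins, had moderate ratios on replicate 1 and high ones on replicate 2. HSP17.4 was at 1.52 and 5.07, HSP17.6A at 1.31 and 4.63 and HSP17.6II at 1.22 and 4.38. AT1G07400 (1.41 and 3.40), AT2G29500 (1.21 and 3.34) and AT1G59860 (1.30 and 2.45) are of the same family, whose coding sequences are similar enough that a probe may bind related transcripts. HSP101, which pulls proteins out of aggregates, was at 1.41 and 2.73 (unadjusted p 0.00487). All of these were past 2-fold on both arrays.

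Among the regulators of the response 1 was alike up. MBF1C, a transcriptional co-activator of thermotolerance, was at 1.25 and 1.57 in the AvSAMS1 TF and at 1.43 and 1.58 in Col-0 (unadjusted p 0.00327). HSFA2, a heat-induced transcription factor, was at 0.59 and 1.28, and HSP90.1 at 0.42 and 1.80, past 2-fold on replicate 2 only. HSFA7A was at 0.08 and -0.98.

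Not all members were high on both arrays. Those above 0 on replicate 1 and below 0 on replicate 2 numbered 5 of 22 (beside 31% of all loci), among them HSP18.2 (2.66 and -0.59) and the mitochondrial HSP23.6-MITO (2.38 and -0.76). AT1G54050, a small heat shock protein, was at 2.19 and 0.26, and the peptidyl-prolyl isomerase AT5G48570 at 1.41 and 0.21. The constitutive HSC70-1 was at -0.16 and 0.31, within 2-fold on both.

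**Figure D3:**
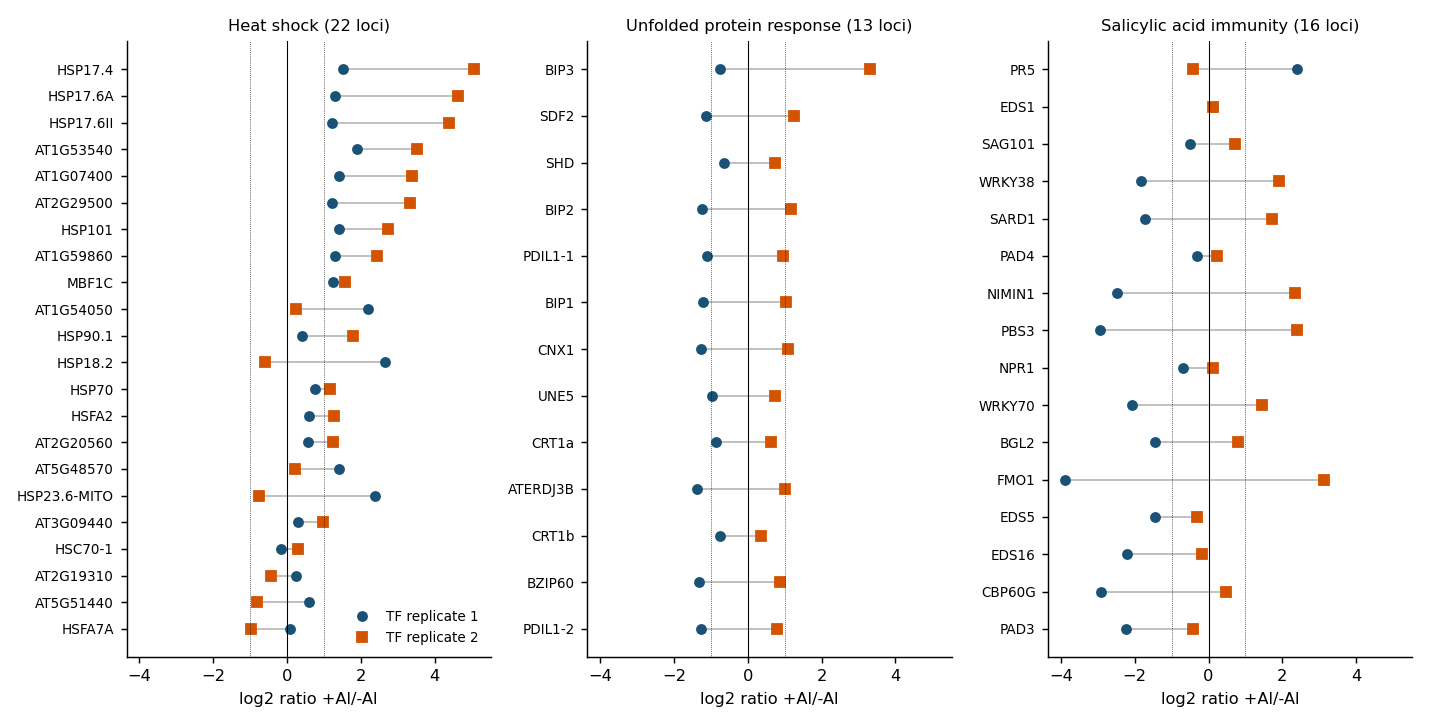
Log2 ratio (x axis) of each measured locus of the heat shock, unfolded protein response and SA immunity lists (y axis) on AvSAMS1 TF replicate 1 (circles) and replicate 2 (squares). Most heat shock loci have both symbols above 0 (16 of 22), whereas all 13 unfolded protein response loci have the circle below 0 and the square above 0.

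Genes of the unfolded protein response were opposed on the 2 arrays without exception. All 13 measured loci were below 0 on replicate 1 (-1.37 to -0.64) and above 0 on replicate 2 (0.37 to 3.30), signs that 31.8% of all loci had, with medians of -1.13 and 0.96, and 5 (38.5%) were past 2-fold on both, beside 2.83% of all loci. With the sign of replicate 1 turned, these 5 would be alike up. In Col-0 the medians were 0.51 and 0.99. The signs of the AvSAMS1 TF medians were the same with loess (-1.11 and 1.02) and with median centring (-0.76 and 1.32), but under centring the count past 2-fold on both dropped to 1.

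The ER chaperones themselves showed this pattern. BIP1 was at -1.21 and 1.03 and BIP2 at -1.23 and 1.18, a pair of HSP70 proteins of the ER lumen with closely similar sequences. BIP3, the stress-induced form, was at -0.74 and 3.30 and at 0.40 and 3.09 in Col-0. The lectin chaperone CNX1 was at -1.28 and 1.09, SDF2 at -1.13 and 1.26, the co-chaperone ATERDJ3B at -1.37 and 1.01 and BZIP60, the transcription factor spliced by IRE1, at -1.32 and 0.88. The spread between the arrays was above 1 log2 unit for each of these.

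Most loci of the SA immunity list were also opposed. Of 20 listed loci 16 were measured, and 11 were below 0 on replicate 1 and above 0 on replicate 2 (beside 31.8% of all loci). The reverse signs were found for 1 (beside 31%) and the same sign for 4 (beside 37.2%). Past 2-fold down on replicate 1 and up on replicate 2 were 6 (37.5%, beside 2.83%). The medians were -1.77 and 0.60, and 0.14 and 1.98 in Col-0. FMO1, the enzyme that makes N-hydroxypipecolic acid, was at -3.89 and 3.12, and at 1.45 and 4.10 in Col-0. PBS3, an enzyme of SA synthesis, was at -2.94 and 2.39, NIMIN1, which binds the SA receptor NPR1, at -2.49 and 2.34, and SARD1, a transcription factor of SA synthesis, at -1.73 and 1.71.

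Within the list WRKY70 (-2.07 and 1.45) and WRKY38 (-1.82 and 1.90) completed the 6 opposed loci. PR5, a thaumatin-like marker protein, was at 2.38 and -0.43 in the AvSAMS1 TF and at 3.59 and 3.47 in Col-0. EDS1, a signalling hub of immunity, was at 0.13 on both arrays.

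WRKY transcription factors, many of which act in defence and senescence, were divided between agreement and opposition. Of 54 measured loci 5 (9.26%) were alike down, beside 1.08% of all loci, and 10 (18.5%) were down on replicate 1 and up on replicate 2, beside 2.83%. The medians were -0.87 and 0.06. Alike down were WRKY9 (-3.86 and -2.91), WRKY27 (-2.06 and -1.38), WRKY30 (-1.43 and -1.70), WRKY47 (-1.73 and -1.02) and WRKY53 (-2.42 and -1.03), the last a regulator of leaf senescence. With normexp, 2 of 54 were past 2-fold down on both arrays under loess as under median centring. Among the opposed loci WRKY31 was at -2.47 and 4.80, WRKY54 at -2.26 and 2.38, WRKY55 at -3.27 and 1.96 and WRKY75 at -2.26 and 1.77.

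GST of the tau and phi classes had members in 3 classes. Of 32 measured loci 3 (9.38%) were alike up, 1 (3.12%) alike down and 5 (15.6%) down on replicate 1 and up on replicate 2, beside 0.376%, 1.08% and 2.83% of all loci, and medians were -0.16 and 0.67 (0.20 and 1.03 under median centring, where the sign of replicate 1 flips). The loci alike up were GSTU25 (above), GSTU24 (1.38 and 1.83) and GSTU22 (1.5 and 1.73, unadjusted p 0.00222). GSTU9 was alike down at -2.16 and -1.87, below both Col-0 arrays (-1.10 and 0.08, unadjusted p of the difference 0.0401). The opposed members were GSTU3 (-2.23 and 5.23), GSTU4 (-1.39 and 1.82), GSTU10 (-2.38 and 2.13), GSTU11 (-2.73 and 2.86) and GSTU12 (-3.38 and 2.04).

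Wall loosening genes were divided. Of 27 measured expansin and XTH loci, 11 were below 0 on replicate 1 and above 0 on replicate 2 (beside 31.8% of all loci). Another 10 had the reverse signs (beside 31%) and 6 the same sign (beside 37.2%), with medians of 0.15 and 0.13. Past 2-fold, 7 (25.9%, beside 2.83% of all loci) were down on replicate 1 and up on replicate 2, and under median centring this count was 4. The 7 were all xyloglucan endotransglucosylases, enzymes that cut and rejoin hemicellulose, such as XTH10 (-1.38 and 4.56), XTR6 (-1.89 and 2.45), TCH4 (-1.74 and 2.16) and XTH25 (-2.32 and 2.01). High on replicate 1 alone were XTH9 (4.61 and -0.03), XTH7 (4.44 and -0.62) and the expansin EXPA6 (3.65 and -0.78).

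The 7 measured loci of the class III peroxidase list, enzymes that make or break wall cross-links with hydrogen peroxide, had members in all 4 classes. There was 1 (14.3%) each alike up, alike down and up on replicate 1 and down on replicate 2, beside 0.376%, 1.08% and 1.19% of all loci. The reverse class held 2 (28.6%, beside 2.83%). The list leaves out AT5G64100 and AT3G03670, the peroxidases named above as alike down. AT5G64120 was alike down at -1.94 and -1.98 (unadjusted p 0.000923), PA2 was just inside the class alike up at 1.00 and 1.06, PRXCA was at 2.46 and -1.42, and PER4 and PRX52 were at -3.80 and 2.71 and at -1.76 and 1.46. Among the NADPH oxidases, which make apoplastic superoxide, RBOHA (-3.11 and -1.07) and RBOHB (-1.15 and -2.03) were the 2 of 6 measured loci alike down (beside 1.08% of all loci), a count that was 0 with loess and with median centring, and RBOHB was below background in a channel of Col-0 replicate 1.

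Cell cycle genes ran the other way. Of 34 listed cyclin and cyclin-dependent kinase loci 18 were measured, and these were dim. As log2 relative to the channel median, their median level on replicate 1 was -3.53 (untreated) and -2.11 (Al-treated). On replicate 2 it was -2.15 and -3.36. Above 0 on replicate 1 and below 0 on replicate 2 were 13 of the 18, beside 31% of all loci. Of the 18, 5 (27.8%) were past 2-fold on both with these signs, beside 1.19% of all loci. The median log2 ratios were 1.21 and -0.45. Signs were the same with loess (0.94 and -0.24) and with median centring (1.27 and -0.27), although the count of 5 became 2 and 1. The 5 were the mitotic kinases CDKB1;2 (2.50 and -1.26) and CDKB2;1 (1.94 and -1.41) and the B-type cyclins CYC1BAT (1.89 and -1.39), CYCB1;3 (1.71 and -1.12) and CYCB1;4 (1.18 and -1.15). Of the 14 measured loci of the DNA and histone methylation list, 6 were above 0 on replicate 1 and below 0 on replicate 2 (beside 31% of all loci). The reverse signs were found for 5 (beside 31.8%), and 3 were above 0 on both arrays (beside 18.4%). VIM1, which acts with the maintenance DNA methyltransferase, was the 1 past 2-fold on both (1.40 and -1.07).

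Photosynthetic genes were high on replicate 1 and near 0 on replicate 2, and stood above Col-0 on both. All 20 antenna proteins, which gather light for the photosystems, were above 0 on replicate 1 (median 1.24). Of these, 10 were above 0 on both arrays (beside 18.4% of all loci), and the median on replicate 2 was 0.03. In Col-0 the medians were -1.33 and -0.72. Both AvSAMS1 TF arrays lay above both Col-0 arrays for 19 of the 20 loci (95.0%), for 22 of 23 photosystem subunits (95.7%), for 12 of 12 chlorophyll synthesis loci and for 13 of 16 carbon fixation loci (81.2%), beside 16.5% of all loci. With loess and with median centring these counts were 19, 23, 12 and 13 and 19, 23, 12 and 15. For the difference between the lines, 12 antenna loci (60.0%), 6 photosystem loci (26.1%) and 4 chlorophyll synthesis loci (33.3%) had an unadjusted p under 0.05, each higher in the AvSAMS1 TF, beside 1.25% of all loci. After adjustment over all probes 0 passed (smallest adjusted p 0.991). With the sign of replicate 1 turned, all 20 antenna loci would be below 0 on that array. The counts above Col-0 and the p-values rest on the direction kept and were not computed with it turned.

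CAB2, a chlorophyll a/b binding protein, was at 1.69 and 1.00 (just under 2-fold) in the AvSAMS1 TF and at -1.57 and -0.15 in Col-0, a difference of 2.20 with an SE of 0.62 (unadjusted p 0.0212). Its near-identical copies CAB1 (1.13 and 0.79) and CAB3 (1.26 and 0.78) had similar values, and their probes may share transcripts. LHB1B1 was at 0.06 and -0.35 against -3.37 and -1.97, and LHCB6 at 1.36 and 0.57 against -1.09 and -0.07. At CAB2, LHB1B1 and LHCB6 both AvSAMS1 TF values lay above both Col-0 values. On replicate 2 the Col-0 values of CAB2 and LHCB6 were near 0. With the channels as given, the antenna list differed between the lines more in untreated than in Al-treated RNA. As log2 relative to the median of the channel, its median untreated level was 5.26 and 5.97 in the AvSAMS1 TF against 6.85 and 6.94 in Col-0, and its Al-treated level 6.22 and 6.20 against 5.46 and 6.18. On replicate 1 this rests on the channels of the AvSAMS1 TF array, whose exchange was not tested.

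The median of the photosystem subunits was 0.65 and -0.29, of chlorophyll synthesis 0.92 and -0.21 and of carbon fixation 0.58 and -0.26, and under median centring all 3 values of replicate 2 became positive (0.14, 0.15 and 0.13). Opposed past 2-fold, up on replicate 1 and down on replicate 2, were 3 of the 20 antenna loci, beside 1.19% of all loci. These were LHCB2.3 (3.38 and -1.31), LHCB4.3 (2.32 and -1.10) and LHCB2.1 (1.22 and -1.22), of which 0 remained under median centring. LHB1B2 (0.90 and 1.18) and the oxygen-evolving complex protein PSBO1 (0.98 and 0.71) were above 0 on both arrays.

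**Figure D4:**
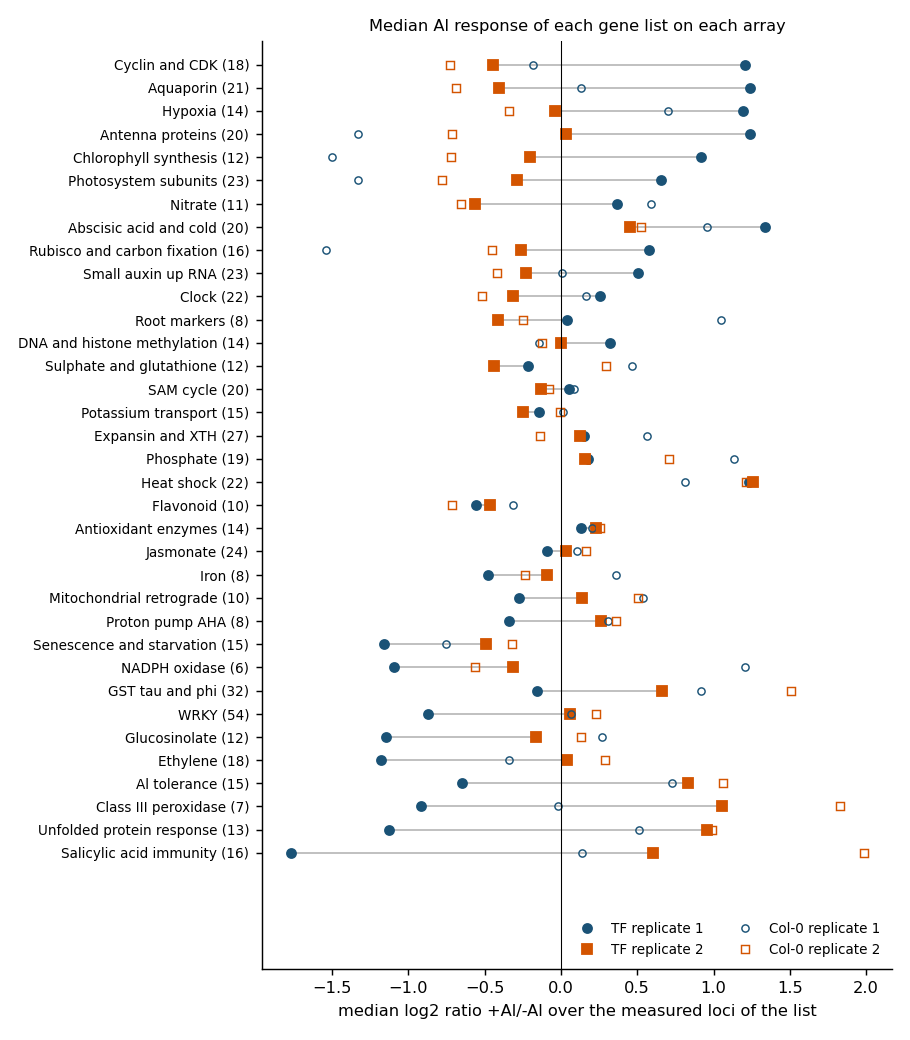
Median log2 ratio (x axis) of gene lists with at least 6 measured loci (y axis) on AvSAMS1 TF replicates 1 and 2 (filled symbols) and Col-0 replicates 1 and 2 (open symbols). Heat shock lies above 0 on all 4 arrays, whereas the antenna protein median is 1.24 on AvSAMS1 TF replicate 1 and -1.33 on Col-0 replicate 1.

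Some carriers of the phosphate, nitrate and sulphate lists were alike down. PHT1;1 and PHT1;2, near-identical phosphate uptake carriers whose probes may share transcripts, were at -2.32 and -3.51 and at -2.53 and -3.21 in the AvSAMS1 TF (unadjusted p 0.0018 and 0.0022), and at -1.36 and -2.27 and -0.82 and -2.24 in Col-0. The nitrate carrier NRT2:1 was at -1.33 and -4.67, its co-induced locus WR3 at -1.99 and -1.44 (unadjusted p 0.00245) and the sulphate carrier SULTR1;2 at -1.09 and -1.75 (unadjusted p 0.00767). All were past 2-fold down on both arrays. The 8 measured root markers had medians of 0.04 and -0.41, and the summed level of all 25, as log2 relative to the channel median, was 3.46 (untreated) and 4.47 (Al-treated) on replicate 1 and 4.90 and 4.93 on replicate 2. The part of root RNA in the values of these transporters was not tested.

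About as many loci of the phosphate starvation list lay below Col-0 as not. The medians of its 19 measured loci were 0.18 and 0.16 in the AvSAMS1 TF and 1.13 and 0.71 in Col-0, and 10 loci (52.6%) were below both Col-0 arrays, beside 12.5% of all loci, while 2, PEPC1 and SPX4, were above both. The measured root markers had a median of 1.05 on Col-0 replicate 1 and -0.25 on replicate 2, and their part in this difference was not tested. PHT1;4 was at -0.65 and -0.39 against 1.04 and 1.25 (unadjusted p of the difference 0.0063), and PHT1;5 at 0.13 and 0.55 against 2.36 and 2.37 (unadjusted p 0.0034, with 1 channel below background on Col-0 replicate 1). Of the sulphate and glutathione list 7 of 12 loci (58.3%) were below both Col-0 arrays, 5 with loess and 6 with median centring, among them APR1, an enzyme of sulphate reduction (-1.09 and -0.42 against 0.62 and 0.16).

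Of 15 measured loci of the Al tolerance list 11 were below 0 on replicate 1 and above 0 on replicate 2, beside 31.8% of all loci, with medians of -0.65 and 0.83 and of 0.73 and 1.06 in Col-0. ALMT1, the malate channel that releases malate to bind Al, was at -0.42 and 1.82, and at 0.73 and 2.38 in Col-0. ALS3, a transporter that moves Al within the plant, was at 0.31 and 2.61 against 2.56 and 2.12, and STOP1, the transcription factor that drives ALMT1, at -0.65 and 0.10. PGIP1 (-1.11 and 3.10) and GDH2 (-1.23 and 2.21), both STOP1 targets, were the 2 loci (13.3%, beside 2.83%) opposed past 2-fold. AT1G51340, the MATE citrate transporter, was at -0.13 and 2.31 and at 3.54 and 2.40 in Col-0.

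The genes of the SAM cycle, the pathway in which the transgene product acts, had 0 of 20 measured loci in any of the 4 classes, a share not far from the 5.47% of all loci, and medians of 0.05 and -0.13 (0.42 and 0.21 under median centring, where the sign of replicate 2 flips). The endogenous SAM synthetases SAM1 (-1.34 and 0.15), SAM-2 (-0.02 and -0.18), MAT3 (-0.42 and -0.09) and MTO3 (0.19 and -0.15) were within 2-fold on both arrays, except SAM1 on replicate 1, and their similar sequences may share probes. SAHH2, which clears S-adenosylhomocysteine, was at 2.62 and -0.43, and the nicotianamine synthases NAS1 and NAS3 were at 0.51 and -2.72 and at -0.99 and -1.93. In the ethylene list, ACC synthases, which use SAM, were opposed in both directions, ACS2 at -2.22 and 2.00, ACS6 at -2.28 and 1.02 and ACS11 at 1.37 and -1.42.

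HAK5, the high-affinity potassium carrier, was at -0.15 on replicate 1 and 8.01 on replicate 2 of the AvSAMS1 TF, and at 8.05 and 5.91 in Col-0. The other 3 arrays were thus all high and replicate 1 of the AvSAMS1 TF was near 0. The proton pumps HA2 (-1.05 and 2.49) and HA7 (-1.65 and 4.65), which energise uptake at the plasma membrane, were opposed in the same direction, as was KUP10 (-1.28 and 1.23). HR4, of the RPW8 immune family, was at -1.45 and -0.14, and was not well above background in Col-0.

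Several further lists were higher on replicate 1 than on replicate 2. Of 20 measured abscisic acid and cold genes 10 were above 0 on both arrays (beside 18.4% of all loci) and 0 below 0 on both, with medians of 1.33 and 0.45. Past 2-fold up were 11 on replicate 1 (beside 11.4% of all loci) and 3 on replicate 2 (beside 5.98%). The cold and dehydration proteins COR15A (4.31 and 0.24), LTI78 (4.32 and 0.16) and KIN2 (4.44 and 0.16) were near 0 on replicate 2, whereas RAB18, a dehydrin, was at 1.60 and 0.81. Of 14 measured hypoxia loci 9 were above 0 on replicate 1 only (beside 31% of all loci), with medians of 1.20 and -0.04. The alcohol dehydrogenase ADH1 (3.69 and 1.38) was the 1 alike up (7.14%, beside 0.376% of all loci). The pyruvate decarboxylase AT4G33070 was at 5.25 and -0.16. Of 21 measured aquaporin loci 13 were above 0 on replicate 1 only (beside 31% of all loci), with medians of 1.24 and -0.41. PIP2E (1.81 and 1.13, limma unadjusted p 0.00631) was the 1 alike up (4.76%, beside 0.376% of all loci). TIP2;2 was at 1.40 and -1.15 and GAMMA-TIP at 3.52 and -0.72.

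Senescence and starvation genes had medians below 0 on both arrays. Of 15 measured loci 8 were below 0 on both (beside 18.8% of all loci), 0 above 0 on both, 6 below 0 on replicate 1 only and 1 below 0 on replicate 2 only, with medians of -1.16 and -0.49 and of -0.76 and -0.32 in Col-0, and the sign of both AvSAMS1 TF medians was negative under loess and under median centring (-0.58 and -0.05). In limma 6 (40.0%) had an unadjusted p under 0.05, beside 3.51% of loci. SEN1, induced by darkness, was at -1.12 and -0.88, NAP, a NAC factor of leaf senescence, at -1.72 and -0.73, and IVD and MCCA, enzymes of leucine breakdown, at -1.50 and -0.81 and at -0.87 and -1.02. SAG13 was at -0.07 and 2.48.

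The largest opposed values among single loci had extreme ratios on both arrays. LTPG5 (AT3G22600), a lipid transfer protein, was at -4.22 on replicate 1 and 4.31 on replicate 2, and at 2.55 and 4.13 in Col-0. The zinc finger locus AT3G53600 was at -3.94 and 5.09, AT5G44990 at -3.94 and 4.13, and MYB122, a factor of indole glucosinolate synthesis, at -3.83 and 3.86. The glucosinolate enzyme CYP79B2 (-3.81 and 1.68) was in the same class. In the reverse class RL3 was at 3.84 and -2.47, AT4G10270, of the wound-responsive family, at 3.65 and -2.67, GRP5, a glycine-rich wall protein, at 3.54 and -2.41 and BAM5, a beta-amylase, at 3.51 and -2.30.

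The opposed classes can be followed into the channels, since each ratio is the difference of an Al-treated and an untreated level. Levels are log2 processed signals relative to the median of each channel, and the gap of a channel is its level on replicate 1 minus replicate 2. The rule of the opposed classes sets a lower bound on the distance between the 2 gaps. The share of each channel in that distance is free. Among the 482 loci down on replicate 1 and up on replicate 2, the untreated level was higher on replicate 1 than on replicate 2 by a median of 2.30 and the Al-treated level was lower by a median of 1.49 (-1.49). The gap was larger in untreated RNA for 312 loci (64.7%), beside 58.9% of all loci. Among the 202 loci of the reverse class the medians were -2.14 in untreated and 1.37 in Al-treated RNA, with the larger gap in untreated RNA for 127 loci (62.9%). In the unfolded protein response list the medians were 1.48 and -0.56, in SA immunity 1.37 and -0.84 and in the cell cycle -1.06 and 0.78. With quantile scaling of the channels in place of their medians the shares were 64.3% and 58.9%, beside 59.1% of all loci, so that the reverse class no longer lay above it.

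Across the 17027 loci, as a description, the level of untreated replicate 1 correlated at 0.86 with untreated replicate 2 and at 0.89 with Al-treated replicate 2. Al-treated replicate 1 correlated at 0.93 with untreated and at 0.92 with Al-treated replicate 2. Within replicate 2 the channels correlated at 0.94, and within replicate 1 at 0.90. Untreated plants of replicate 1 and replicate 2 were collected on different days by the labels, and the part of the sampling day, the slide and the scan in these gaps was not tested.

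**Figure D5:**
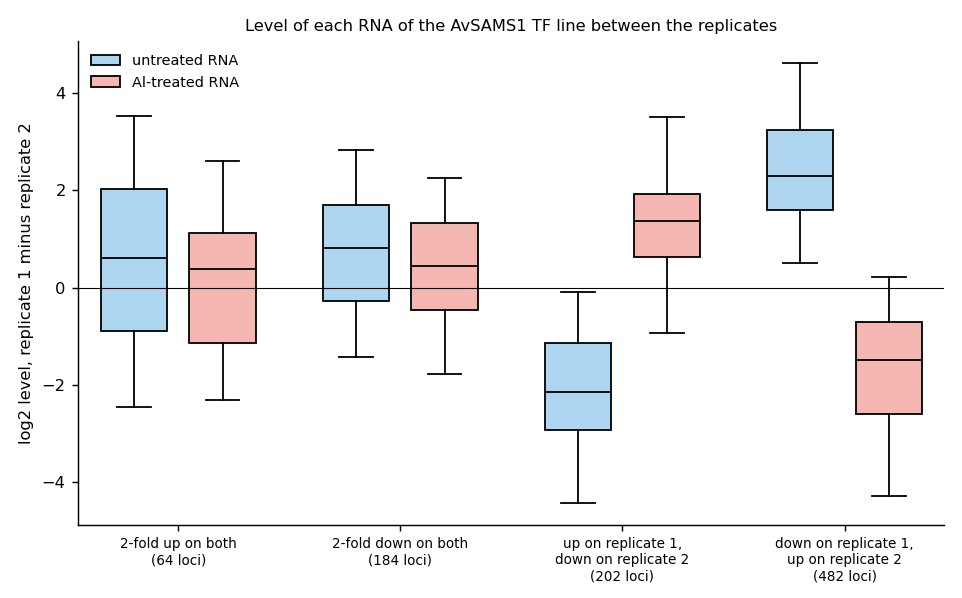
Level on AvSAMS1 TF replicate 1 minus replicate 2 (y axis, log2) in untreated and in Al-treated RNA for the 4 classes of loci (x axis), as boxes of the quartiles with the median and whiskers to the 5th and 95th percentiles. Both opposed classes show gaps of opposite sign in the 2 channels (2.30 and -1.49, and -2.14 and 1.37), whereas loci alike up and alike down have gaps of the same sign (0.61 and 0.37, and 0.81 and 0.45). The rule that defines the opposed classes itself sets their 2 gaps far apart.

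Col-0 replicate 2 followed replicate 2 of the AvSAMS1 TF in the alike as in the opposed classes. Of the 64 loci alike up 42 were past 2-fold up on Col-0 replicate 2 (beside 6.97% of all loci). Of the 184 alike down 114 were past 2-fold down there (beside 4.79%). Each class was picked past 2-fold on AvSAMS1 TF replicate 2, which correlated with Col-0 replicate 2 at 0.82 over probes. The shares of all loci are therefore not a like baseline. Of the 482 loci down on replicate 1 and up on replicate 2, 398 were past 2-fold up on Col-0 replicate 2, the array of the same slide (beside 6.97% of all loci), 184 on Col-0 replicate 1 (beside 8.07%), where 38 were past 2-fold down, and 165 on both Col-0 arrays (beside 2.98%). Of the 202 loci of the reverse class 108 were past 2-fold down on Col-0 replicate 2 (beside 4.79%), 41 on Col-0 replicate 1 (beside 9.41%), where 18 were past 2-fold up, and 33 on both Col-0 arrays (beside 2.12%), while 0 were past 2-fold up on both. The Col-0 medians were 0.67 and 1.90 for the first and -0.21 and -1.03 for the second.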

How the data were processed

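RNA of Al-treated (Cy5) and untreated (Cy3) plants was compared on 4 Agilent 2-colour arrays, 2 per line. The authors made the files with Agilent Feature Extraction (11.0.1.1 for replicate 1 and 10.7.1.1 for replicate 2 in the file headers, 10.7.3.1 in the submitters' processing notes), with background subtraction and dye correction, and analysed them with GeneSpring. The deposited log10 ratio of each spot was changed to log2. The deposited p-value beside a ratio rests on an error model within 1 array and entered only an alternative. The deposited intensity columns used here were both processed signals and, for an alternative, median spot and background signals. The deposited series table holds log2 ratios that the authors made from the same signals and was used as an alternative. The sources describe separate pools of plants as replicates. The number of arrays limits the precision.

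Control spots were left out, as were 10 to 23 outlier spots per array, and the spots of a probe were averaged. A further 0 columns of other samples were present. Gene symbols came from the TAIR10.1 table, and 34285 of 43603 probes were paired to 25383 loci. For a locus with several probes the brightest was used. The response of each line and their difference were tested with limma 3.58.1 (R 4.3.3) on all 4 arrays, with Benjamini-Hochberg adjustment over the probes tested, and the fit was tested on simulated data. The arrays of the line correlated at -0.16 over all probes. The direction of the ratios was kept since the methods state the dyes, and an exchange of the channels on AvSAMS1 TF replicate 1 was not tested. Turning its sign was added after the data were seen.

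Named were the 8 loci with the largest smaller absolute log2 ratio alike up and the 8 alike down, the 6 largest of each opposed class (not all are printed), up to 4 loci per list, list members past 2-fold on both arrays, and SAM1, SAM2, MAT3, MAT4, STOP1, ALMT1, ALS3, HAK5 and HR4. Other loci printed were added with their values known. The members and lists were chosen with earlier results of these data known. A ribosomal protein list was dropped because its pattern caught other genes, and a few loci were trimmed by annotation.

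Alternatives were normexp (offset 50, on median spot signals) with loess or median centring, the series table, other filters and folds, a replicate block, an intensity trend, a t-test in place of limma, and leaving out each array.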

Additional observations from a re-analysis of the deposited data

Results flagged for a closer look

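Both AvSAMS1 TF arrays were past 2-fold down and both Col-0 arrays past 2-fold up at 2 of the 184 loci alike down. Over all loci, 2.98% were past 2-fold up on both Col-0 arrays. Both loci were well above background in every channel of the 4 arrays, but dim. As log2 relative to the channel median, the Al-treated AvSAMS1 TF levels of AT1G67150 were -5.47 and -5.53, and the untreated Col-0 levels of RLP56 were -5.40 and -5.01. At AT1G67150 the log2 ratios were -2.49 and -1.32 in the AvSAMS1 TF and 2.49 and 1.25 in Col-0, a difference of -3.77 (SE 0.66, limma unadjusted p 0.00373, adjusted p 0.991). At RLP56, a receptor-like protein, they were -1.09 and -1.15 against 1.89 and 1.12, a difference of -2.62 (SE 0.41, limma unadjusted p 0.00239, adjusted p 0.991). Neither difference passed the adjusted threshold.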

How the results depend on the processing

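The number of probes with an unadjusted limma p under 0.05 for the Al response of the AvSAMS1 TF (963) was 2437 with median centring, 1897 without a filter, 526 with the AvSAMS1 TF arrays alone and 526 to 4476 when each array in turn was left out (526 without either Col-0 array, 1728 without AvSAMS1 TF replicate 1 and 4476 without replicate 2). A line with 1 array left was taken to vary like the other. For the difference between the lines (350) it was 712 without a filter and 103 to 5352 when an array was left out (103 without Col-0 replicate 1, 5352 without AvSAMS1 TF replicate 2). The adjusted count was 0 in every fit run, these included. In the fit that holds the replicate number as a block, the pairing gave counts of 2020 and 837. The labels mark the numbers as experiments, and deviations from the line means correlated at 0.43 between same-numbered arrays, over 2 pairs.

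Counts past 2-fold on both arrays depended on the scaling. Probes alike up (87) became 199 with median centring, 311 without a filter, 281 at 1.5-fold and 4 at 4-fold, and 1423 to 2616 on 1 array alone. Those alike down (251) became 160 with loess, 93 with median centring, 525 without a filter, 700 and 40 at the other folds, and 1026 to 3091 on 1 array. Up on replicate 1 and down on replicate 2 (272) became 168, 98, 711, 1062 and 13, and 1026 to 2616 on 1 array, and the reverse (679) became 441 with centring, 1610 and 139 at the other folds, and 1423 to 3091 on 1 array. Median centring moved the median log2 ratio of all probes from -0.07 and -0.02 to 0.29 and 0.26. Upward probes made up 25.7% of those alike, 33.3% with loess and 68.2% with centring, and 29.8%, 39.1% and 87.8% of those with an unadjusted p under 0.05. Shared with the main count under centring were 81 of 87 probes alike up, 93 of 251 alike down, and 90 of 272 and 350 of 679 opposed.

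Of the lists, unfolded protein response loci down on replicate 1 and up on replicate 2 went from 5 to 1 with centring, expansin and XTH from 7 to 4, WRKY alike down from 5 to 2 with loess and to 2 with centring, cell cycle loci up on replicate 1 and down on replicate 2 from 5 to 2 with loess, 1 with centring and 9 without a filter, and antenna loci from 3 to 0 with centring. The 2 NADPH oxidase loci alike down became 0 with loess and 0 with centring. Single named loci moved by more than the spread of their arrays in 50 of the values under alternatives. Of the other alternative values of main counts, 94 were within 1.5 times. The settings for channel levels and for the counts above or below Col-0 were chosen after seeing the data. Precision is limited by 2 arrays and, on replicate 1, by the weaker untreated signal.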

Other observations

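Probes outside the condition on both channels held a few loci seen in 1 treatment only. On both AvSAMS1 TF arrays 46 probes of 35 loci were well above background in Al-treated RNA and not in untreated RNA, and 48 probes of 29 loci the reverse, for which no fold is given. Of the 17027 loci, 507 were past 2-fold up and 361 past 2-fold down on both Col-0 arrays, beside 64 and 184 on both AvSAMS1 TF arrays.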
